A study of Mus musculus with 10 samples.

Results

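Expression of lysosomal genes was followed in retinas of Balb/c mice, which are albino, after light damage and in controls, by sequencing of RNA. The set held 35 genes for soluble hydrolases, their cofactors and lysosomal membrane proteins, chosen by gene symbol with earlier results of these data known. All 35 were found among the 19999 genes of the deposited count table, and all 35 passed the filter on low counts. The groups were light damage, with 5 libraries named LD-vehicle, and control, with 5 libraries named CTRL-vehicle, so both carry the word vehicle and the labels do not say what it was. A compound called A74 is named in the series' design text, and no library of the count table is labelled with it. The labels state no light dose, time after exposure, age or sex. They also do not say that each library came from its own mouse, so the spread behind every p-value is that between libraries and may be technical in part.

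Totals lay between 17900227 and 20337329 counts in light damage libraries and between 14652535 and 20699236 in controls. The retinal label was checked against 12 rod photoreceptor markers, which all had counts. They summed to 63579 to 88931 CPM (counts scaled to a common library size, here with TMM factors) in light damage and 68682 to 110645 CPM in controls. Of the 12 rod fold changes 9 were negative, and edgeR called Grk1 lower and Sag higher; the part of this shift in the lysosomal fold changes was not tested. The light damage libraries were not alike. Replicates 1 and 2 had 17174 and 20414 counts of Xist, an RNA made from the inactive X chromosome, against between 1 and 9 in the other 8 libraries. No control had such Xist counts, so a difference in sex cannot be fully told apart from light damage, and its part was not tested. Replicates 1 and 2 also had 7519.6 and 4015 CPM of 9 lens markers, against at most 118 CPM elsewhere. Counts of changed genes are therefore given with and without them. In whole retina, fewer cells of a type and less RNA per cell cannot be told apart.

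Lysosomes are acidic organelles in which hydrolases break down proteins, glycans and lipids delivered by endocytosis, phagocytosis and autophagy. Most soluble hydrolases are sorted there by a mannose phosphate tag, and a proton pump, the V-ATPase, keeps the lumen acid. The transcription factor TFEB and its relatives bind a palindromic motif in the promoters of many of these genes. In the eye the pathway is known for the daily breakdown of photoreceptor outer segment tips by the retinal pigment epithelium, and for digestion of cell debris by microglia. Inherited loss of several of these enzymes causes storage disease that reaches the retina.

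In light-damaged retina 11 of the 35 genes were higher, 1 was lower and 23 did not pass (edgeR quasi-likelihood test, Benjamini-Hochberg adjusted p under 0.05). Higher were the proteases Ctsl, Ctsz, Ctsd and Cpq, the glycosidases Glb1 and Hexa, the lipid-handling proteins Psap, Gm2a and Npc2, and the membrane proteins Lamp1 and Cd63. The single fall was Cln3, a membrane protein lost in a juvenile form of Batten disease. Over all 16852 genes tested, 5.32% were higher and 7.85% were lower. With library totals in place of TMM that balance turned, to 6.81% higher and 5.41% lower, and 11 members were higher and 0 lower. The rises were small. The log2 fold changes of the 11 genes lay between 0.21 for Lamp1 and 1.02 for Cpq, with Ctsl next to Cpq at 0.58.

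The median log2 fold change of the 35 genes was 0.19, against 0.00165 over all genes tested, and 29 of the 35 fold changes were positive. In 10 members every light damage value lay above every control value, and no member had the reverse; over all genes tested 4.31% had the first pattern and 5.48% the second. Summed over the 35 genes, light damage libraries held between 3963 and 4417 CPM and controls between 3441 and 3821 CPM. The count of 11 fell to 7 without light damage replicate 2 and to 7 without control replicate 5, fits in which the share of all genes higher fell too, to 2.83% and 3.46%. It fell to 3 without light damage replicates 1 and 2 together. The 3 that remained were Ctsz, Cpq and Gm2a. In that fit 0.782% of all genes were higher and 1.55% lower.

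**Figure D1:**
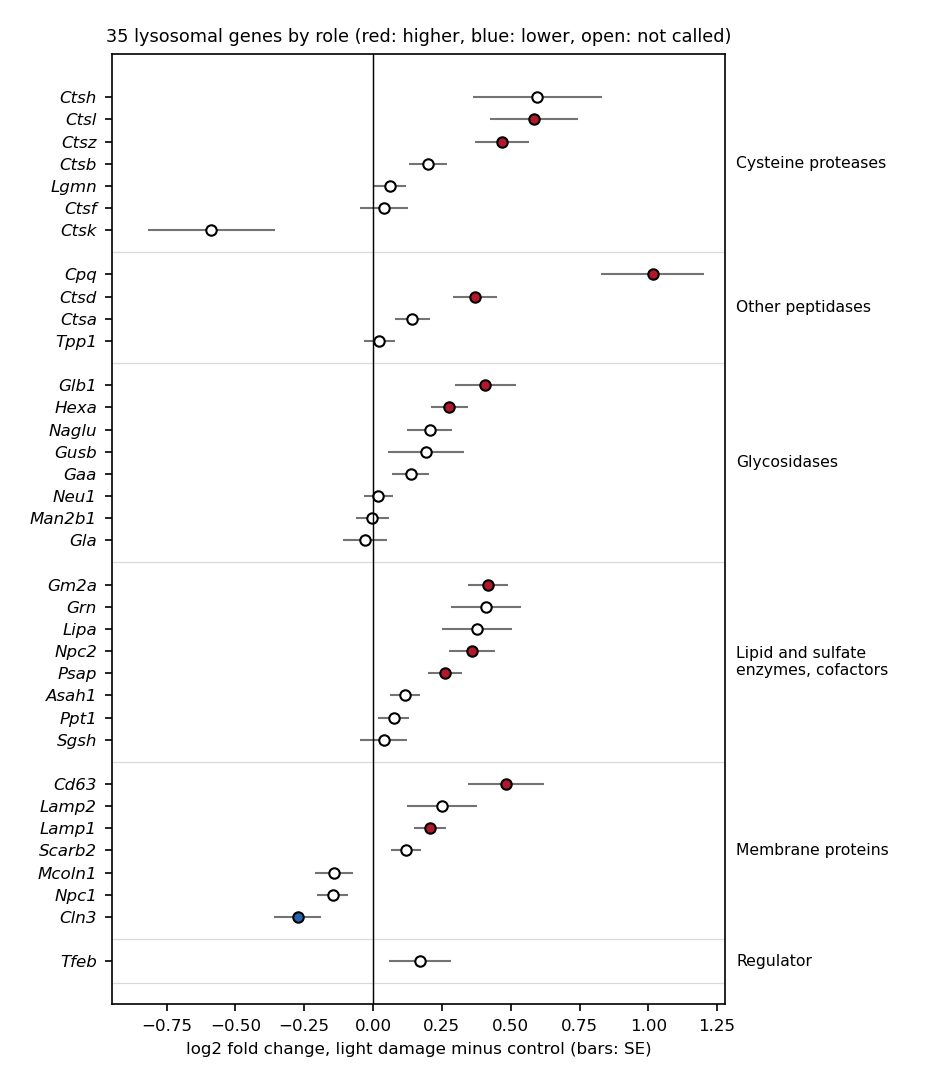
Log2 fold change of the 35 lysosomal genes (x axis, light damage minus control) with its standard error, grouped by role. Red points are the 11 genes called higher, the blue point is Cln3, and open points did not pass the adjusted p threshold; Cpq lies farthest to the right at 1.02.

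Promoters were read from RefSeq (GRCm38.p6, while the submitters' processing notes name GRCm39 for the counts). They span 250 bases before to 50 bases after each annotated start, and 30 of the 35 members matched. Unmatched were Ctsb, Asah1, Cpq, Ctsh and Npc1. Both strands were searched for the palindrome bound by TFEB, which is TCACGTGA with a G before it and a C after it, for TCACGTGA itself and for its core CACGTG, so that the shorter counts include the longer. CACGTG was found for 13 of the 30 members (43.3%), against 11.2% of the tested genes with a promoter in the table and 7.15% of all 32851 windows. TCACGTGA was found for 5 members (16.7%), against 2.01% of tested genes and 0.974% of all windows. The full palindrome was found for 1 member, Cln3, and for 0.701% of tested genes and 0.326% of all windows. Of the 11 called members with a promoter, 5 held CACGTG, and of the 19 others, 8 did. A match is a string of letters, not a measured binding site. Shown are the stretches with matches of the 5 called members, then those of Mcoln1 and Ctsa, which did not pass and hold TCACGTGA, as Gla does. Each reads 5′ to 3′ toward the gene, with the longest match at each place in capitals.
Lamp1 (chr8:13159036-13159160, plus strand): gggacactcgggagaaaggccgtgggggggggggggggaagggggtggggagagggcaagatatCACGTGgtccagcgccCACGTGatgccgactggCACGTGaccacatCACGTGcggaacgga
Ctsd (chr7:142387828-142387952, minus strand): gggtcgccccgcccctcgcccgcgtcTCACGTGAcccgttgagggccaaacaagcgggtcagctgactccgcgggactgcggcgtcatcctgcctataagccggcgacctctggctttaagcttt
Glb1 (chr9:114400953-114401077, plus strand): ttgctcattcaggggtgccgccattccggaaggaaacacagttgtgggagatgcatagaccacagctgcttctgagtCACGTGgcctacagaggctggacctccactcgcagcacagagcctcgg
Ctsl (chr13:64370646-64370770, minus strand): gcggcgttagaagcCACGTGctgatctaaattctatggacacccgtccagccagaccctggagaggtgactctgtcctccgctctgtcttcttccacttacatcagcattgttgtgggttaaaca
Cln3 (chr7:126583262-126583386, minus strand): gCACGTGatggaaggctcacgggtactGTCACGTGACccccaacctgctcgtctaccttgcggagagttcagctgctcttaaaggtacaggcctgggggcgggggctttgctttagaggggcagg
Mcoln1 (chr8:3500394-3500518, plus strand): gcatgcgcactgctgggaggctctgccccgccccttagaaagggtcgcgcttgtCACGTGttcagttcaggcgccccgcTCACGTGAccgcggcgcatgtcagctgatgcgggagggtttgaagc
Ctsa (chr2:164833678-164833802, plus strand): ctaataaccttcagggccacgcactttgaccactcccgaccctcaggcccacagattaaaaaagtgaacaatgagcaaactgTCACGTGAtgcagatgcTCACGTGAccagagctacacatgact

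Lamp1 holds 4 copies of CACGTG between positions -61 and -10, counted from the first transcribed base as 1. Ctsd holds TCACGTGA from -99 to -92 and a further CACGTG from -245 to -240, which is outside the stretch shown. In Cln3, the gene that fell, the full palindrome runs from -123 to -114 upstream of 1 of its annotated starts. Ctsa holds TCACGTGA on each side of its start, from -13 to -6 and from 5 to 12. Genes with these letters thus include members that rose, fell and did not pass.

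Among the cysteine proteases, Ctsl and Ctsz rose and the other 5 did not pass. Ctsl, the endopeptidase cathepsin L, had 226, 193, 151, 129 and 122 CPM in light damage replicates 1 to 5, and 116, 104, 109, 112 and 106 CPM in control replicates 1 to 5. The groups did not overlap, and light damage replicates 1 and 2 were far above the rest. Ctsl averaged 164 ± 43.98 against 109 ± 4.95 CPM (SD, n = 5 per group), which is 0.58 as a log2 fold change (SE 0.16, edgeR adjusted p = 0.0422). The call was lost without light damage replicate 2 or 3 or without any 1 of the 5 controls (edgeR adjusted p between 0.0585 and 0.0898). For Ctsl the log2 fold change without light damage replicates 1 and 2 together was 0.29 (edgeR adjusted p = 0.0627).

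Ctsz, the carboxypeptidase cathepsin Z, had 49.6, 55.1, 71.2, 51.9 and 50.8 CPM in light damage replicates 1 to 5, and 36.8, 36.1, 45.2, 41.8 and 41.6 CPM in control replicates 1 to 5. Its groups did not overlap either, but here light damage replicate 3 stood highest and the other 4 lay close together. The means were 55.7 ± 8.88 against 40.3 ± 3.82 CPM (SD, n = 5 per group), which is 0.47 as a log2 fold change (SE 0.10, edgeR adjusted p = 0.00777). Ctsz passed in all 10 fits that left out 1 library, and its log2 fold change without light damage replicates 1 and 2 was 0.53 (edgeR adjusted p = 0.0321).

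Ctsh, an aminopeptidase among the cathepsins, had 22.3, 25.1, 31.5, 22.1 and 14.4 CPM in light damage replicates 1 to 5, and 14.3, 13.1, 23.2, 13.5 and 12.1 CPM in control replicates 1 to 5. Light damage replicate 3 was again highest, and control replicate 3 lay inside the light damage range. Its log2 fold change of 0.60 (SE 0.23) was as large as that of Ctsl, and it did not pass (edgeR adjusted p = 0.124). Without control replicate 3 it was 0.80 (edgeR adjusted p = 0.0234), and it also passed without light damage replicate 5 (edgeR adjusted p = 0.0338) and with DESeq2 on all 10 libraries (adjusted p = 0.0176). Ctsb, the abundant cathepsin B, was between 509 and 608 CPM in light damage and between 429 and 514 CPM in controls, with a log2 fold change of 0.20 and a 95% interval of 0.06 to 0.34 (edgeR adjusted p = 0.0611). On all 10 libraries Ctsb passed with DESeq2 (adjusted p = 0.0177) and with library totals in place of TMM (edgeR adjusted p = 0.0291). It also passed without control replicate 1 or 4 (edgeR adjusted p = 0.0362 and 0.0428). Lgmn, the asparagine-specific endopeptidase legumain, and Ctsf differed little, with log2 fold changes of 0.06 (95% interval -0.07 to 0.19) and 0.04 (-0.15 to 0.23). Ctsk, the collagen-cleaving cathepsin K, was scarce, between 0.895 and 1.29 CPM in light damage and between 1.03 and 1.97 CPM in controls, and its log2 fold change of -0.59 did not pass (edgeR adjusted p = 0.0969).

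Of the 4 other peptidases, Cpq and Ctsd rose. Cpq, a secreted and lysosomal metallocarboxypeptidase, had 28.2, 24.5, 19.7, 15.6 and 13.02 CPM in light damage replicates 1 to 5, and 9.55, 10.5, 9.65, 11.2 and 9.11 CPM in control replicates 1 to 5. Every light damage library was above every control. Means were 20.2 ± 6.24 against 10.01 ± 0.829 CPM (SD, n = 5 per group), a 2.02-fold rise (log2 1.02, SE 0.19, edgeR adjusted p = 0.00693). It passed in each of the 10 fits that left out 1 library. Its log2 fold change without light damage replicates 1 and 2 was 0.69 (edgeR adjusted p = 0.0248).

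Ctsd, the aspartic protease cathepsin D, which digests rod opsin in the pigment epithelium, had 226, 237, 258, 199 and 199 CPM in light damage replicates 1 to 5, and 185, 176, 155, 189 and 160.2 CPM in control replicates 1 to 5. The lowest light damage libraries, replicates 4 and 5, lay just above the highest control. Means were 224 ± 25.2 against 173 ± 14.8 CPM (SD, n = 5 per group), which is 0.37 as a log2 fold change (SE 0.08, edgeR adjusted p = 0.00781), and the call held without any 1 library. It was lost without light damage replicates 1 and 2 together (log2 fold change 0.34, edgeR adjusted p = 0.0781). Ctsa, the protective protein that stabilises Neu1 and Glb1, had a log2 fold change of 0.14 (95% interval 0.01 to 0.28) and did not pass, except without control replicate 4 (edgeR adjusted p = 0.0434). Tpp1, a tripeptidyl peptidase, was between 174 and 179 CPM in light damage and between 164 and 197 CPM in controls. Its log2 fold change of 0.02 had a 95% interval of -0.10 to 0.14.

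Of 8 glycosidases, Glb1 and Hexa rose and 6 did not pass. Hexa, the alpha subunit of beta-hexosaminidase, had 48.99, 54.2, 50.7, 48.4 and 43.02 CPM in light damage replicates 1 to 5, and 41.2, 42.8, 36.9, 41.9 and 39.7 CPM in control replicates 1 to 5. The groups did not overlap, though light damage replicate 5 and control replicate 2 nearly touched. Its means were 49.1 ± 4.07 against 40.5 ± 2.29 CPM (SD, n = 5 per group), which is 0.28 as a log2 fold change (SE 0.07, edgeR adjusted p = 0.0154). Glb1, the acid beta-galactosidase, had 15.7, 13.5, 11.7, 11.4 and 11.4 CPM in light damage replicates 1 to 5, and 10.2, 10.5, 8.90, 9.89 and 8.57 CPM in control replicates 1 to 5. Light damage replicate 1 was highest and replicates 3 to 5 lay just above the controls. Means of Glb1 were 12.7 ± 1.88 against 9.60 ± 0.828 CPM (SD, n = 5 per group), which is 0.41 as a log2 fold change (SE 0.11, edgeR adjusted p = 0.0253).

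Glb1 lost its call without light damage replicate 1 or 2 or control replicate 3 or 5 (edgeR adjusted p between 0.0555 and 0.0790), and Hexa kept its call in each such fit. Neither passed without light damage replicates 1 and 2 together, with log2 fold changes of 0.23 for Hexa and 0.26 for Glb1. The glycosidases that did not pass had log2 fold changes between -0.03 for Gla, the alpha-galactosidase, and 0.21 for Naglu, an enzyme of heparan sulfate breakdown. Gusb, beta-glucuronidase, had 11.5, 15.4, 14.96, 9.80 and 8.96 CPM in light damage replicates 1 to 5, against between 10.3 and 11.3 CPM in controls. Replicates 1 to 3 were above every control and replicates 4 and 5 below every control. Its log2 fold change was 0.19 (95% interval -0.10 to 0.48). Intervals around 0 were narrow for Neu1, the sialidase (-0.09 to 0.13), and Man2b1, an alpha-mannosidase (-0.13 to 0.12). Gaa, the glycogen-digesting alpha-glucosidase, had 0.14 (-0.01 to 0.28).

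The proteins of lipid and sulfate breakdown and their cofactors numbered 8. Psap, Gm2a and Npc2 rose, the other 5 did not pass, and all 8 fold changes were positive. Psap, the precursor of the saposins that present sphingolipids to hydrolases, had 866, 859, 951, 819.7 and 871 CPM in light damage replicates 1 to 5, and 754, 720.04, 665, 754 and 753 CPM in control replicates 1 to 5. All light damage values were above all control values. Means were 873 ± 47.8 against 729 ± 38.8 CPM (SD, n = 5 per group), which is 0.26 as a log2 fold change (SE 0.06, edgeR adjusted p = 0.0145). Gm2a, the ganglioside activator that works with hexosaminidase, had 47.7, 38.6, 46.3, 39.6 and 37.9 CPM in light damage replicates 1 to 5, and 32.2, 31.5, 31.9, 31.1 and 30.6 CPM in control replicates 1 to 5. The controls lay close together, and replicates 1 and 3 were the higher light damage libraries.

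Gm2a averaged 42.02 ± 4.60 against 31.4 ± 0.645 CPM (SD, n = 5 per group), which is 0.42 as a log2 fold change (SE 0.07, edgeR adjusted p = 0.00309). It was the 1 member that passed in every alternative fit, with log2 fold changes of 0.39 without light damage replicates 1 and 2 and 0.41 without replicates 2 and 3 (edgeR adjusted p = 0.0278 and 0.0325). Npc2, the soluble carrier that hands cholesterol to Npc1, had 56.3, 57.4, 64.4, 50.1 and 43.9 CPM in light damage replicates 1 to 5, and 44.4, 41.9, 40.7, 44.1 and 40.98 CPM in control replicates 1 to 5. Light damage replicate 5 lay inside the control range and replicate 3 was highest. Its means were 54.4 ± 7.75 against 42.4 ± 1.72 CPM (SD, n = 5 per group), which is 0.36 as a log2 fold change (SE 0.08, edgeR adjusted p = 0.0119). Psap and Npc2 passed without any 1 library but not without light damage replicates 1 and 2 together (edgeR adjusted p = 0.0920 and 0.102).

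Grn, the progranulin gene, whose product is a lysosomal and secreted protein made strongly by microglia, had 49.2, 61.4, 74.9, 46.4 and 46.5 CPM in light damage replicates 1 to 5, and 44.3, 37.9, 39.5, 43.4 and 44.4 CPM in control replicates 1 to 5. Every light damage library was above every control, with replicate 3 far above the rest. The log2 fold change was 0.41 (SE 0.13), and Grn did not pass (edgeR adjusted p = 0.0526). On all 10 libraries it passed with DESeq2 (adjusted p = 0.00998), and in edgeR with RLE size factors (0.0498) or without robust dispersion (0.0405). It also passed without light damage replicate 4 or 5 (edgeR adjusted p = 0.0343 and 0.0290). Lipa, the acid lipase of cholesteryl esters, had 17.6, 20.6, 22.2, 15.3 and 14.1 CPM in light damage replicates 1 to 5, with controls between 10.9 and 15.5 CPM. Its log2 fold change of 0.38 did not pass (edgeR adjusted p = 0.0609). It passed with DESeq2 (adjusted p = 0.0386) and, by edgeR, without light damage replicate 5 or control replicate 1 (0.0237 and 0.0460). Asah1, the acid ceramidase, Ppt1, a palmitoyl thioesterase, and Sgsh, the heparan sulfamidase, had log2 fold changes of 0.12, 0.07 and 0.04, with 95% intervals of -0.0019 to 0.23, -0.04 to 0.19 and -0.15 to 0.22.

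**Figure D2:**
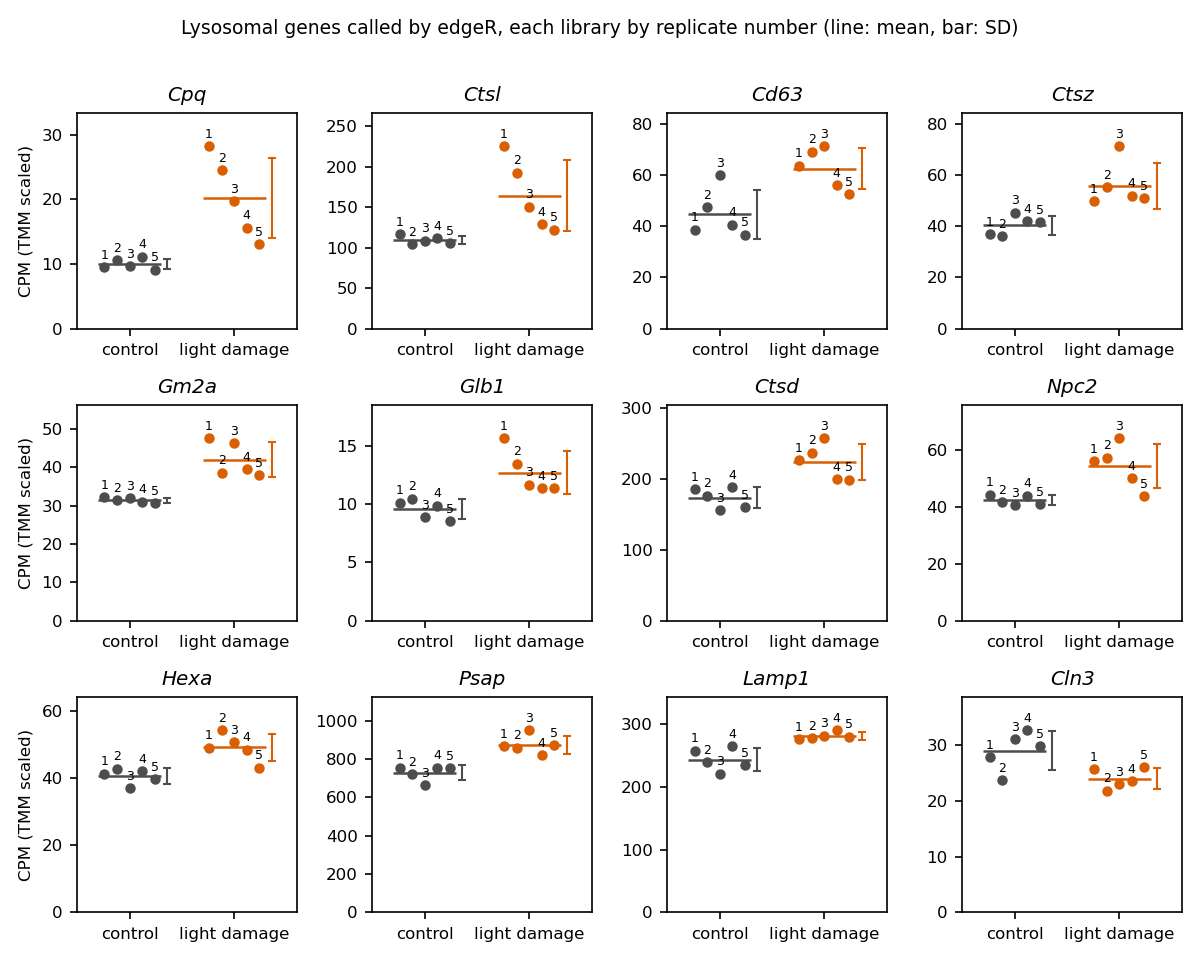
CPM (y axis, from 0) of the 12 called genes in each library, with the replicate number beside each point, the group mean as a line and the SD as a bar. Light damage replicates 1 to 3 hold the highest value of 10 of the 11 genes called higher, while Lamp1 is even across the 5 light damage libraries.

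Of 7 membrane proteins Lamp1 and Cd63 rose, Cln3 fell and 4 did not pass. Lamp1, a heavily glycosylated protein that lines the lysosomal membrane, had 275, 277, 281, 290.3 and 279.7 CPM in light damage replicates 1 to 5, and 257, 239, 221, 265 and 235 CPM in control replicates 1 to 5. Light damage libraries differed little among themselves, and all lay above the controls. The means were 281 ± 5.80 against 243 ± 17.8 CPM (SD, n = 5 per group), which is 0.21 as a log2 fold change (SE 0.06, edgeR adjusted p = 0.0298). Lamp1 lost its call without any 1 of light damage replicates 1 to 4 or control replicates 2, 3 and 5 (edgeR adjusted p between 0.0513 and 0.0724). In the fit without light damage replicates 1 and 2, Lamp1 had a log2 fold change of 0.22 (edgeR adjusted p = 0.119).

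Cd63, a tetraspanin of late endosomes and lysosomes, had 63.7, 69.1, 71.3, 56.1 and 52.4 CPM in light damage replicates 1 to 5, and 38.6, 47.6, 59.99, 40.7 and 36.7 CPM in control replicates 1 to 5. Light damage replicates 1 to 3 were above all controls, and control replicate 3 was above light damage replicates 4 and 5. Cd63 averaged 62.5 ± 8.15 against 44.7 ± 9.49 CPM (SD, n = 5 per group), which is 0.48 as a log2 fold change (SE 0.14, edgeR adjusted p = 0.0417). Its call was lost without any 1 of light damage replicates 1 to 4 or control replicates 1, 2, 4 and 5 (edgeR adjusted p between 0.0502 and 0.0981), and also when library totals replaced TMM scaling (0.0640). Without light damage replicates 1 and 2 the log2 fold change was 0.43.

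Cln3 had 25.6, 21.8, 22.9, 23.5 and 25.99 CPM in light damage replicates 1 to 5, and 27.8, 23.7, 31.03, 32.7 and 29.7 CPM in control replicates 1 to 5. The groups overlapped, since control replicate 2 was among the lower values. Means were 23.96 ± 1.80 against 28.97 ± 3.47 CPM (SD, n = 5 per group), which is -0.27 as a log2 fold change (SE 0.09, edgeR adjusted p = 0.0445). The call was lost without any 1 of light damage replicates 1 to 4 or control replicates 3 to 5 (edgeR adjusted p between 0.0649 and 0.116) and without light damage replicates 1 and 2 together (0.175). It was also lost with library totals in place of TMM scaling (edgeR adjusted p = 0.0725), with no filter on low counts (0.0528), without robust dispersion (0.0519) and with limma-voom (adjusted p = 0.0592). The log2 fold change was negative in every one of these fits.

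Npc1, the membrane transporter that takes cholesterol from Npc2, and Mcoln1, a lysosomal calcium channel, also had negative log2 fold changes, -0.15 (95% interval -0.27 to -0.02) and -0.14 (-0.29 to 0.0044), and neither passed. Npc1 was between 84.5 and 88.4 CPM in light damage and between 83.5 and 103 CPM in controls, where replicate 3 was lowest; it passed without that control (log2 fold change -0.19, edgeR adjusted p = 0.0285). Mcoln1 passed without control replicate 2 (-0.20, edgeR adjusted p = 0.0351). Lamp2, needed for fusion of autophagosomes with lysosomes, was between 81.1 and 109.7 CPM in light damage and between 68.5 and 102 CPM in controls, with a log2 fold change of 0.25 (95% interval -0.03 to 0.53). Scarb2, the receptor that carries glucocerebrosidase to lysosomes, had 0.12 (0.003 to 0.23).

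Tfeb, the transcription factor of the set, was low in both groups. It had 11.9, 11.2, 11.7, 9.08 and 9.68 CPM in light damage replicates 1 to 5, and 10.2, 7.72, 10.03, 9.58 and 10.1 CPM in control replicates 1 to 5. Light damage replicates 1 to 3 were above all controls and replicates 4 and 5 were inside their range. The log2 fold change was 0.17 (95% interval -0.07 to 0.41, edgeR adjusted p = 0.325), so no change in Tfeb RNA was detected with these libraries.

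Per length of transcript, the order of the members in control retina was led by Psap at 274 CPM per kilobase, followed by Lamp1 (109), Lgmn (103), Ctsb (100.1), Ctsf (98.2) and Ctsd (81.4). Lamp1, Lgmn, Ctsb and Ctsf lay close together, and their control SDs were between 7.31% and 14.1% of the mean, so these neighbours in the order differed by less than that spread. The lowest levels were those of Ctsk (1.04), Sgsh (3.01) and Gusb (3.95). Levels use the annotated length of the principal transcript, so a gene whose retinal transcript is shorter would rank higher.

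The members did not vary alike across the 5 light damage libraries. Taking log2 CPM minus the control mean of each gene, the median over the 35 members was 0.19, 0.19, 0.26, 0.13 and 0.05 in light damage replicates 1 to 5. Control libraries lay between -0.03 and 0.05, so replicate 5 was no higher than the highest control. Of the 35 genes, 14 were highest in light damage replicate 3, 9 in replicate 1, 5 in replicate 2, 5 in replicate 5 and 2 in replicate 4. Cpq, Ctsl and Glb1 were highest in replicate 1, then replicate 2. Ctsz, Ctsh, Grn, Lipa, Npc2, Cd63 and Ctsd were highest in replicate 3.

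**Figure D3:**
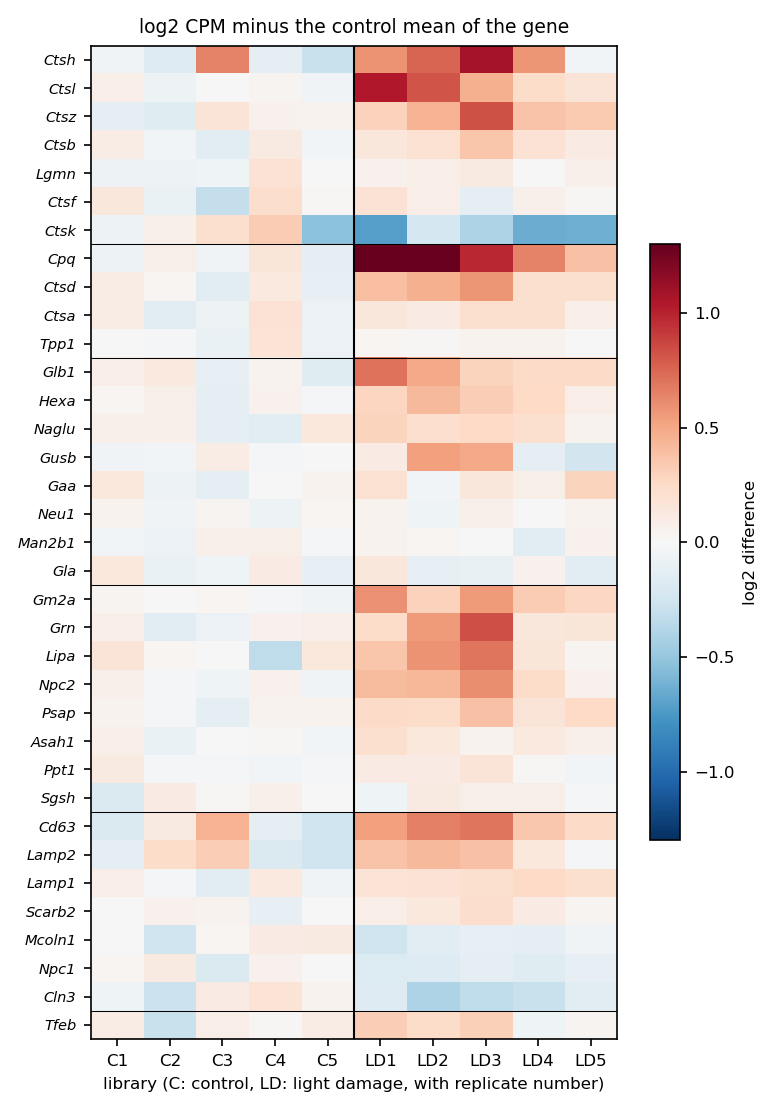
Log2 CPM minus the control mean of each gene (color) for the 35 members (rows, by role) in each library (columns, control then light damage). Cpq and Ctsl are strongest in light damage replicates 1 and 2, Ctsh, Ctsz and Grn in replicate 3, and Cln3, Npc1 and Mcoln1 are below 0 in the light damage columns.

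Marker sums of other cells also differed among the light damage libraries. Whether they varied together with the lysosomal genes was not tested. The 15 microglia and macrophage markers, which all had counts in both groups, summed to 105, 155, 205, 95.6 and 97.1 CPM in light damage replicates 1 to 5, against a control range of 72.98 to 102 CPM. Fold changes were positive for all 15. The sum was highest in light damage replicate 3, as were 14 of the 35 members, among them Ctsz, Ctsh, Grn, Lipa and Npc2. The sums of astrocyte markers and of endothelial and pericyte markers were highest in that library too. How many of all tested genes were highest in that library was not counted. Of the 15 markers, 1 was called higher (4 with DESeq2). The 12 Müller glia markers summed to 8065, 7560.5, 7987, 5761 and 6079 CPM in light damage replicates 1 to 5, against a control range of 4375 to 5840.2 CPM, with 5 of the 12 called higher (3 without light damage replicate 2 or 3). The 9 lens markers of the table summed to 7519.6, 4015, 118, 89.6 and 21.4 CPM in light damage replicates 1 to 5, against a control range of 3.28 to 31.4 CPM, and 3 of the 9 were called higher. That lens count was 9 with DESeq2 and without robust dispersion, 8 without light damage replicate 5, 1 without light damage replicate 4, and 0 with limma-voom, with no filter on low counts, or without any 1 of light damage replicates 1 to 3 or the 5 controls. The part of these cells in the lysosomal fold changes was not tested.

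The 12 markers of retinal pigment epithelium, of which 11 passed the filter, summed to 535, 464, 418, 411 and 368 CPM in light damage replicates 1 to 5, against a control range of 283 to 407 CPM. Of the 11 tested, 0 were called by edgeR or by DESeq2, and 1 was higher at an unadjusted p under 0.05. Much of this sum is Trpm1, which ON bipolar cells also express. Without it the other 11 summed to 258, 156, 105, 151 and 98.7 CPM in light damage replicates 1 to 5 and to 82.6, 107, 137, 96.02 and 43.9 CPM in control replicates 1 to 5. This sum was highest in light damage replicate 1, as were 9 of the 35 members, among them Cpq, Ctsl, Glb1 and Gm2a. The sums of lens, Müller glia, fibroblast and ciliary body and iris markers were highest in that library too. The share of all tested genes that were highest in replicate 1 was not counted either. Fibroblast markers, 9 in the table, summed to 282, 254, 123, 102 and 72.8 CPM in light damage replicates 1 to 5, against a control range of 82.5 to 122 CPM. Every marker sum overlapped between the groups. The ranges were 319 to 475 against 332 to 393 CPM for 10 endothelial and pericyte genes. They were 188 to 325 against 187 to 311 CPM for 6 astrocyte genes. For 9 genes in the table of ciliary body and iris they were 238 to 350.1 against 223 to 319 CPM. Much of that last sum is Aqp1, at 174 and 164 CPM in light damage replicates 1 and 2. In both of these libraries Tyrp1 (24.3 and 22.3 CPM), Zic1 (12.4 and 10.9 CPM), Wfdc1, Otx1, Msx1 and Col9a1 were above all other libraries. Opcml, Mab21l2 and Aqp1 were not. No marker in the table had 0 counts in every library of a group.

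Light damage replicates 4 and 5 had microglial sums within the control range, lens sums of 89.6 and 21.4 CPM, of which the first was above the controls, and Müller glia sums of 5761 and 6079 CPM, of which the second was above the controls. Pigment epithelium markers in replicate 4 were above every control, both with Trpm1 (411 CPM) and without it (151 CPM). In both of these libraries Ctsl, Ctsz, Ctsd, Cpq, Glb1, Hexa, Psap, Gm2a, Grn and Lamp1 were above every control. These are the members with no overlap between the groups, so by definition the same holds in every light damage library. Npc2 was not above every control in replicate 5, and Cd63 was not in replicate 4 or 5. Without light damage replicates 2 and 3, which had the highest microglial sums, 1 member was higher (Gm2a) and none lower, while 0.365% of all genes were higher and 1.13% lower, and the median log2 fold change of the members was 0.15. That pair was chosen after the data were seen.

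**Figure D4:**
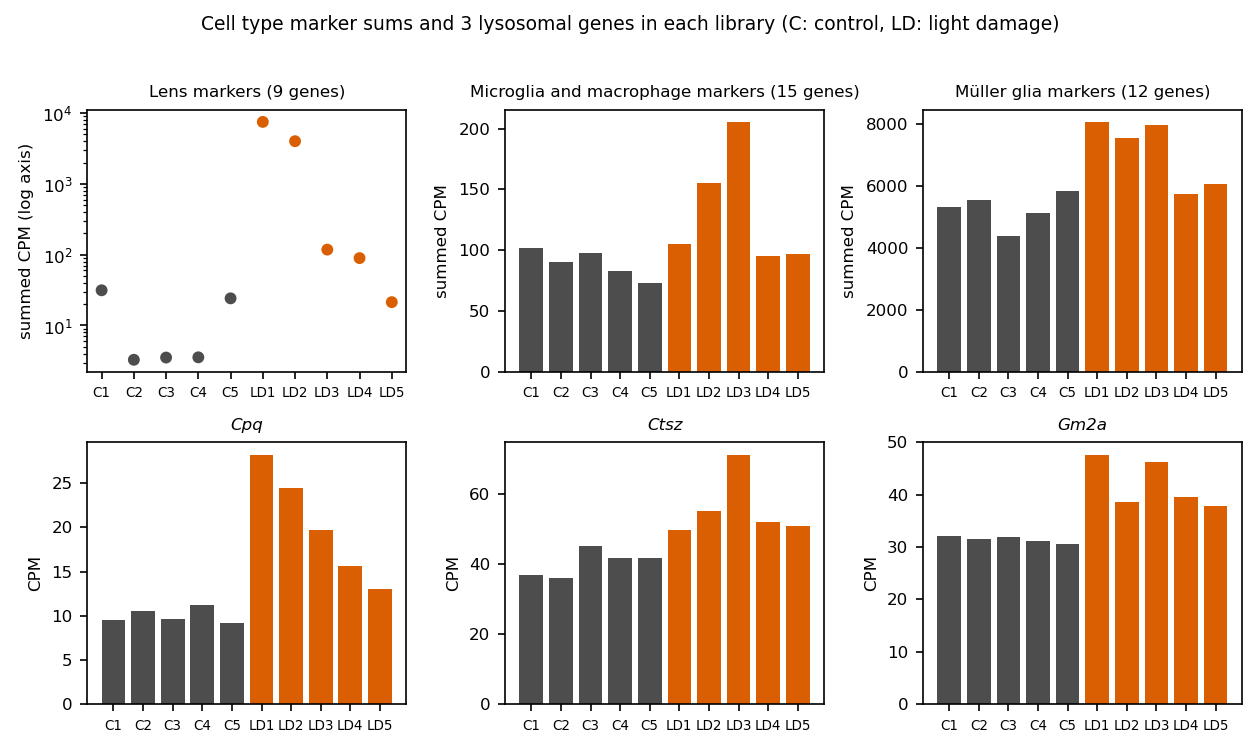
Summed CPM of lens markers (log axis), microglia and macrophage markers and Müller glia markers (upper row), and CPM of Cpq, Ctsz and Gm2a (lower row), in each library (x axis; controls gray, light damage orange). Lens markers stand out in light damage replicates 1 and 2 and microglial markers in replicates 2 and 3, while Gm2a is above the controls in all 5 light damage libraries.

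The wider pathway was followed in 6 lists with 140 genes, of which 137 were tested. Together 18 were higher and 4 lower, against the 5.32% and 7.85% of all genes, and their median log2 fold change was 0.05. Without light damage replicates 1 and 2 together 2 were higher (Atp6v1f and Sqstm1) and 1 lower (Zkscan3), against 0.782% and 1.55% of all genes. Leaving out 1 library lowered the 18 to 8 (light damage replicate 1), 11 (light damage replicate 2), 7 (light damage replicate 3) or 11 (control replicate 5), and raised the 4 to 8 (control replicate 1). In these fits 2.58%, 2.83%, 2.34% and 3.46% of all genes were higher in turn, and 9.65% were lower without control replicate 1. The V-ATPase subunits had the largest share of calls among the 6 lists, with 7 of 19 higher and a median log2 fold change of 0.16. The 7 was 10 with DESeq2 and 11 with library totals, and 3, 2 and 4 without light damage replicates 1, 3 and 4 in turn. Over all genes the share higher was 7.7% with DESeq2 and 6.81% with library totals, and 2.58%, 2.34% and 3.84% without those replicates. By edgeR and by DESeq2 0 subunits were lower, also at an unadjusted p under 0.05 in edgeR. Atp6v1f, Atp6v1b2 and Atp6v1e1, subunits of the cytosolic ATP-splitting part of the pump, had log2 fold changes of 0.28, 0.23 and 0.23 (edgeR adjusted p = 0.0122, 0.0190 and 0.0199). Atp6v1b2 had 643, 625, 639, 646 and 636 CPM in light damage replicates 1 to 5 and 570.4, 556, 494, 548 and 559 CPM in control replicates 1 to 5, with no overlap. Atp6v1e1 lost its call without light damage replicate 3 (edgeR adjusted p = 0.0515).

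Of 35 other hydrolases tested, 4 rose, while 5.32% of all genes did, and the list's median log2 fold change was 0.10. The number lower was 0 by edgeR, 1 by DESeq2 and 1 at an unadjusted edgeR p under 0.05. Arsb, a sulfatase of dermatan sulfate, had 0.26 (edgeR adjusted p = 0.0145), Aga, which cleaves the glycan link to asparagine, 0.41 (0.0271), and Fuca1, a fucosidase, 0.24 (0.0439). Aga lost its call without light damage replicate 1, 3 or 4 or control replicate 4 (edgeR adjusted p between 0.0569 and 0.0727). Fuca1 lost its call without light damage replicate 1, 2 or 3 or control replicate 2, 3 or 5 (between 0.0727 and 0.123). The fourth was Ifi30, a thiol reductase of antigen-presenting cells, at 0.73 (edgeR adjusted p = 0.0465); it is outside the naming rule, was named after its value was seen, and lost its call without any 1 of light damage replicates 1 to 3 or of the 5 controls. Of 26 other membrane proteins 3 rose and 2 fell, against 5.32% and 7.85% of all genes. Laptm4a, a small transmembrane protein of late endosomes, had a log2 fold change of 0.34 (edgeR adjusted p = 0.0136), Gpr137b, which acts with Rag GTPases, 0.59 (0.0143), and Lamp5, a brain-type relative of Lamp1, 0.31 (0.0201). Slc38a9, the lysosomal arginine sensor upstream of mTORC1, had 52.2, 58.5, 54.8, 62.2 and 65.1 CPM in light damage replicates 1 to 5 and 66.9, 80.3, 78.2, 74.5 and 80.8 CPM in control replicates 1 to 5. All light damage values were below all controls, a log2 fold change of -0.38 (edgeR adjusted p = 0.00414). Sidt2, a lysosomal RNA transporter, had -0.28 (edgeR adjusted p = 0.0286), a call lost without any 1 of light damage replicates 1 to 4 or control replicates 3 to 5 (edgeR adjusted p between 0.0549 and 0.0767). Lamp5 lost its call without light damage replicate 2 or 3 (0.0562 and 0.0616).

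Of 16 genes that sort hydrolases to lysosomes, 1 fell, while 7.85% of all genes did. The number higher was 0 by edgeR and by DESeq2, and 2 at an unadjusted edgeR p under 0.05. The gene that fell was Gga3, a clathrin adaptor that binds mannose phosphate receptors, with a log2 fold change of -0.32 (edgeR adjusted p = 0.00759). Among 19 tested relatives of Tfeb and genes of its mTORC1 control, Rraga, a GTPase that recruits mTORC1 to lysosomes, had a log2 fold change of 0.20 (edgeR adjusted p = 0.0363) and Zkscan3 fell. Rraga lost its call without light damage replicate 1, 2 or 4 or control replicate 2, 3 or 5 (edgeR adjusted p between 0.0612 and 0.103). Zkscan3, a zinc finger protein described as a repressor of lysosomal and autophagy genes, had 87.7, 96.7, 86.5, 87.4 and 91.4 CPM in light damage replicates 1 to 5 and 105, 120.2, 132, 117 and 127 CPM in control replicates 1 to 5. The groups did not overlap, and the log2 fold change was -0.42 (edgeR adjusted p = 0.00159), or -0.44 without light damage replicates 1 and 2 (edgeR adjusted p = 0.0209).

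Of 22 autophagy genes 3 rose, while 5.32% of all genes did. The number lower was 0 by edgeR, 1 by DESeq2 and 3 at an unadjusted edgeR p under 0.05. Sqstm1, the cargo receptor p62, had 326, 327, 351, 321 and 331 CPM in light damage replicates 1 to 5 and 294, 249.96, 264, 249 and 264 CPM in control replicates 1 to 5. Light damage libraries were alike and all were above the controls, a log2 fold change of 0.33 (edgeR adjusted p = 0.00370), and 0.34 without light damage replicates 1 and 2. Gabarap, a ubiquitin-like protein of autophagosome membranes, had a log2 fold change of 0.28 (edgeR adjusted p = 0.0244), and Vps11, part of the complexes that tether vesicles to lysosomes, 0.17 (0.0447). Gabarap lost its call without light damage replicate 1 or 3 or control replicate 2 or 5 (edgeR adjusted p between 0.0534 and 0.0676). Vps11 lost its call without any 1 light damage library or without control replicate 2, 3 or 5 (between 0.0614 and 0.114).

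**Figure D5:**
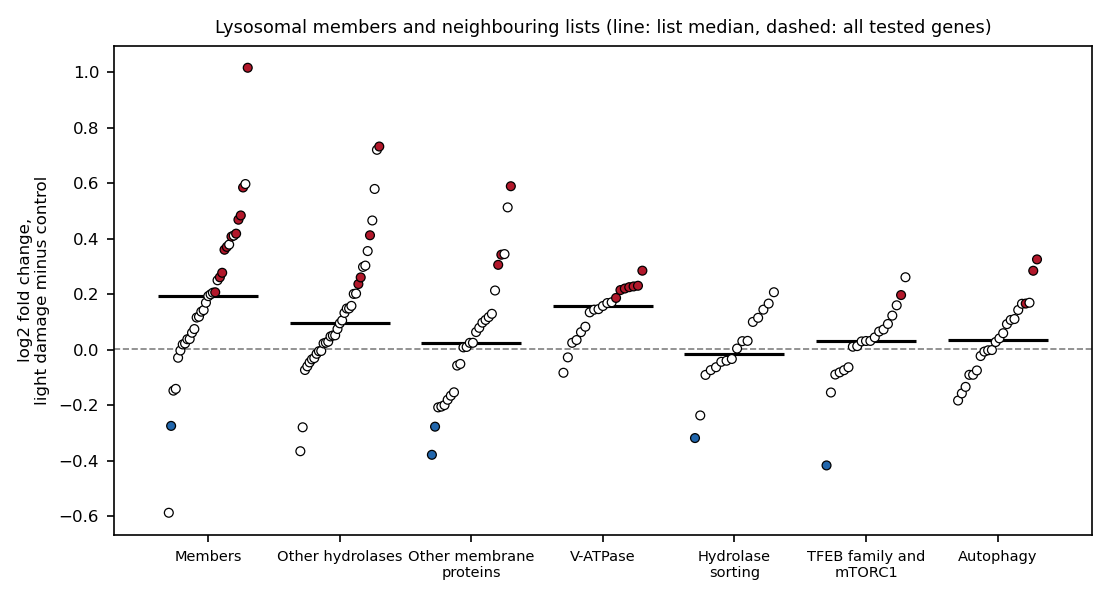
Log2 fold change (y axis) of each tested gene of the 35 members and of 6 neighbouring lists, in rising order within a list, with the list median as a line and the median of all genes tested dashed. Red points were called higher and blue points lower; the medians were 0.19 for the members, 0.16 for the V-ATPase and between -0.01 and 0.10 for the other lists.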

How the data were processed

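Retinal RNA was sequenced in 10 libraries, 5 per group. The deposited values were whole-number read counts per gene for 19999 Ensembl genes; per the submitters' processing notes the tools were RSEM 1.3.1, Bowtie2 and DESeq2 1.4.5, with the build GRCm39. The labels do not state whether counting used strand or whether RSEM's estimated counts were rounded. Symbols came from GENCODE M21 and matched 19892 genes. No pair of libraries agreed within sampling noise (lowest chi-square per degree of freedom over 45 pairs 5.77).

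Counts were tested with edgeR 4.0.16 in R 4.3.3 (filterByExpr, TMM, robust quasi-likelihood fit), with Benjamini-Hochberg adjustment over 16852 genes; these held between 99.80% and 99.92% of each library's counts. CPM values used TMM library sizes, and 95% intervals came from the fit. Promoters were RefSeq windows of GRCm38.p6, and transcript lengths were those of the principal GENCODE M21 transcript. The fitting script was tested on simulated counts. It called 44% of genes given a 1.3-fold change, 62% at 1.5-fold, 90% at 2-fold and 100% at 4-fold. Each change was given to 50 of 16852 genes, with the same expected level in all light damage libraries. The data held more changed genes (2219 called) and unlike light damage libraries, so these rates may not carry over to them. A gene that did not pass may thus still differ by a small fold.

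Alternatives were DESeq2 1.42.0, limma-voom (limma 3.58.1), other scalings and filters, a replicate block, and leaving out libraries. Every member could be named, with full statistics for called members, and up to 3 called genes per direction with the lowest p in each neighbouring list. The members and lists were chosen with earlier results of these data known.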

Additional observations from a re-analysis of the deposited data

Results flagged for a closer look

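In each of 70 groups of 5 values (35 genes in 2 groups), the gap between the most extreme library and its nearest neighbour was divided by the group's range and compared with Dixon's 95% critical value of 0.71. Chance passes it in about 1 in 20 groups, and 6 groups passed. Control replicate 3 stood above the other controls for Ctsh (0.741) and for Gusb (0.753). Control replicate 2 stood below the others for Tfeb (0.785). The remaining gaps were those of control replicate 4 for Lgmn (0.743), control replicate 1 for Ppt1 (0.878) and light damage replicate 4 for Man2b1 (0.729). None of these 6 genes was called in the comparison of the groups, and Ctsh passed without control replicate 3.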

How the results depend on the processing

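The count of 11 members higher and 1 lower was 15 and 1 with DESeq2, which also called more of all genes (7.7% higher and 9.44% lower), and 12 and 1 with RLE size factors. It was 11 and 0 with limma-voom, with library totals alone and with no filter on low counts, and 12 and 0 without robust dispersion. Without light damage replicates 1 and 2 together, 3 members were higher and 0 lower, against 135 of all genes higher and 268 lower, and 2 other lysosomal and autophagy genes were higher and 1 lower. Without light damage replicates 2 and 3 together, 1 member was higher and 0 lower, against 63 of all genes higher and 195 lower, 1 other lysosomal gene was higher and 1 lower, and 1 member was lower with no overlap. Leaving out 1 library at a time gave 7 to 14 members higher and 0 to 2 lower, 399 to 1347 of all genes higher and 723 to 1644 lower, and 7 to 22 other lysosomal and autophagy genes higher and 3 to 8 lower. It gave 9 to 14 members higher with no overlap and 0 to 2 lower, and median log2 fold changes of 0.14 to 0.21. The share of all genes with no overlap was not computed for any fit that left out libraries. With fewer libraries, groups separate more easily by chance.

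The labels do not say whether replicate numbers pair the libraries. Deviations of same-numbered libraries correlated at between 0.0522 and 0.316, and 2 of 5 light damage libraries correlated best with the control of their own number. These values do not settle whether the libraries were paired. A fit with the replicate number as a block called 14 members higher and 1 lower, losing Ctsl (edgeR adjusted p = 0.0555) and gaining Ctsb, Ctsh, Lamp2 and Lipa. In that fit 1431 of all genes were higher and 1854 lower, and 8 other lysosomal and autophagy genes were lower.

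A few genes that did not pass in any of these fits changed sign. Leaving out 1 library gave log2 fold changes of -0.0219 to 0.0315 for Man2b1, -0.0738 to 0.0137 for Gla, -0.00254 to 0.0651 for Sgsh and -0.0312 to 0.104 for Ctsf. Man2b1 had 0.0236 with library totals and 0.00692 with no filter, and Ctsf had -0.0213 without light damage replicates 1 and 2. Without light damage replicates 2 and 3, Gla had 0.0256, Sgsh -0.000943 and Gusb -0.0727. The cause of these shifts was not tested.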
